A study of Mus musculus with 59 samples.

Results

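Histone H3 lysine 27 acetylation (H3K27ac) was compared between endometrial tissue of C57/B6 mouse uteri taken at 54-65 weeks of age (10 libraries) and at 9-11 weeks (7 libraries). These 17 libraries were all those of the 2 ages among 27 H3K27ac libraries, in a series of 59 libraries that also holds 27 H3K4me3 and 5 input libraries. Animals of 28-36 weeks (4 H3K27ac libraries) and 42-48 weeks (6) lay between. Each library is named for 1 mouse and came from a piece of snap-frozen tissue, digested with micrococcal nuclease without crosslinking, and no transgene, treatment or stage of the oestrous cycle is named in the labels. All 54354 peaks of the H3K27ac table on chromosomes 1 to 19 and X were tested. Nothing but age group and antibody chose the libraries, so no measured value set 1 library over another. The comparison itself was chosen with earlier results of these data known.

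H3K27ac is laid down by the acetyltransferases p300 and CBP on nucleosomes beside active promoters and enhancers, and is removed by histone deacetylases. H3K4me3 sits at promoters, whether weakly or strongly used, so the pair of marks tells active promoters from active distal elements. Endometrium is a mixture of a luminal and glandular epithelium, a fibroblastic stroma, vessels and leukocytes, with smooth muscle of the myometrium beneath, and oestrogen and progesterone remodel it in every cycle. In such a bulk sample, fewer cells of a type and less of the mark per cell cannot be told apart.

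The promoters below stand for the results that follow. Foxc1 (a forkhead transcription factor of mesenchyme), Nt5e (CD73, the enzyme that makes extracellular adenosine from AMP), Ltf (lactoferrin, a secreted product of oestrogen-stimulated epithelium) and Cldn4 (a tight-junction claudin) rose at 54-65 weeks. Emp3 (a tetraspan membrane protein), Hoxd11 (a homeobox factor of the posterior body) and Col3a1 (type III collagen) fell. Each line gives the 250 bases before the RefSeq start of the gene in build GRCm38.p6, 5′ to 3′ along the gene. Capitals mark any match to 6 motifs on either strand: AP-1 (TGANTCA), forkhead (TGTTTAC), the half-site of oestrogen and other nuclear receptors (AGGTCA), the GC box, the TATA box and ETS (CCGGAAG). The GC box is GGGCGG and the TATA box is TATAAA, and matches may overlap. The mature miR-3966, whose hairpin starts in the last peak of a run of falling peaks described further on and reaches past its end, is given with its seed in capitals.
Foxc1, chr13:31806396-31806645, plus strand: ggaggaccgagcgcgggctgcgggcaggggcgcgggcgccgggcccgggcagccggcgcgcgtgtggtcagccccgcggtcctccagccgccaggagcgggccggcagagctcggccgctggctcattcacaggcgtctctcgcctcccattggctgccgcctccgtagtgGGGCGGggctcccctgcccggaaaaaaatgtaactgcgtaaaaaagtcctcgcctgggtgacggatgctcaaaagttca
Nt5e, chr9:88327359-88327608, plus strand: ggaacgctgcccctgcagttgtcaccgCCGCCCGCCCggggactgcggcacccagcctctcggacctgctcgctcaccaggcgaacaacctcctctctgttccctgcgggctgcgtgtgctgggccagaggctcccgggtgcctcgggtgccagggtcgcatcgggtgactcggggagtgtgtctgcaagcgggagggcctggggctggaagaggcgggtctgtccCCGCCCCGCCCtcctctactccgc
Ltf, chr9:111019042-111019291, plus strand: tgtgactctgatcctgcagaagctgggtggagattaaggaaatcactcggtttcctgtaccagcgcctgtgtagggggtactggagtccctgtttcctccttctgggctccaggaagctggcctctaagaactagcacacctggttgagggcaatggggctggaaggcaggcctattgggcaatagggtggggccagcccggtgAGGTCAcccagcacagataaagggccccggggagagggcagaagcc
Cldn4, chr5:134946935-134947184, minus strand: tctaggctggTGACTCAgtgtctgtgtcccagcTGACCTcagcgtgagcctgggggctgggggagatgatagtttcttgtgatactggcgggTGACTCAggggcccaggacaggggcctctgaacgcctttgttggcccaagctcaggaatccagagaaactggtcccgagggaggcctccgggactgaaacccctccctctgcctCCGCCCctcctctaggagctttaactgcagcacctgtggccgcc
Emp3, chr7:45921427-45921676, minus strand: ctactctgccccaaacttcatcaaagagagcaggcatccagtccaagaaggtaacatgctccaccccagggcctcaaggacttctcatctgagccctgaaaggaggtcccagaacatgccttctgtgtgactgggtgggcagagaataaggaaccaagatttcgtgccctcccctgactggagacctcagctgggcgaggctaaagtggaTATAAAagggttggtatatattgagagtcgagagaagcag
Hoxd11, chr2:74679308-74679557, plus strand: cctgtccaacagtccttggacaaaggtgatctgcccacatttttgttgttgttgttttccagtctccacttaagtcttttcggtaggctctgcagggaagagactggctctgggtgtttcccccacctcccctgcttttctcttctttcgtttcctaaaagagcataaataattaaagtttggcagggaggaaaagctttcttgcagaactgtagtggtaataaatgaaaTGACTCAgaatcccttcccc
Col3a1, chr1:45311288-45311537, plus strand: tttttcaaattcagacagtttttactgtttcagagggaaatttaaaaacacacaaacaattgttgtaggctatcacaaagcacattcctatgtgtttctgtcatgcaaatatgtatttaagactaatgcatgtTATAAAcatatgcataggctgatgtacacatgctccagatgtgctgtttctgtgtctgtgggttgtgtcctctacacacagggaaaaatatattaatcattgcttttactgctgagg
mmu-miR-3966, chr10:97423493-97423513, plus strand: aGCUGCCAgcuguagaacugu
The Foxc1 window held 29 CpG and a GC box 79 bases before the start, and the Nt5e window 21 CpG and 4 GC boxes in 2 overlapping pairs. Ltf had 4 CpG and an AGGTCA 46 bases before the start. Cldn4 had AP-1 letters at 240 and 158 bases before its start. Among the fallen promoters, Emp3 had a TATA box at 40 bases, Hoxd11 had AP-1 letters at 20 bases and Col3a1 had no CpG and a TATA box at 117 bases. A match of letters is a description of these windows and not a binding site.

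The authors deposited log2 RPKM per peak and library, and these levels were quantile-normalized over the 27 libraries and tested with limma (54-65 weeks minus 9-11 weeks, Benjamini-Hochberg over all 54354 peaks, threshold 0.05). "Rose" and "fell" below mean past that threshold, and every level and change is on the log2 scale. The 54-65-wk libraries held 7.604 to 13.334 M (mega) reads (median 12.633) with 34.5 to 48.3% of them in peaks, and the 9-11-wk libraries 8.701 to 13.336 M (median 10.743) with 32.3 to 48.7%. A peak had a median of 37 to 71 reads per 54-65-wk library and 38 to 57 per 9-11-wk library. A score of epithelial minus stromal marker promoters ran from -1.2 to 1.79 (median 1.19) at 54-65 weeks and from -1.05 to 0.26 (median -0.89) at 9-11 weeks. Replicates 3, 4 and 10 of the 54-65-wk group (0.04, -0.15 and -1.2) stood apart from the other 7 (1.02 to 1.79), and replicates 4 and 5 of the 9-11-wk group (0.26 and 0.12) from the other 5 (-1.05 to -0.79). Library names also carry a digit of unstated meaning, 5 values of which hold both ages, and 4 of the 54-65-wk libraries (replicates 1, 7, 8 and 9) carry a digit that no 9-11-wk library has.

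Across the genome as many peaks fell as rose, but promoters and distal peaks were split unequally. Of all peaks, 29.3% were called, with 14.4% risen and 14.9% fallen at 54-65 weeks. Among the 10747 genes with a promoter peak (within 1 kb of the RefSeq start, 1 peak a gene), 6.34% rose and 19.4% fell, so that falls outnumbered rises by 2085 to 681. Away from promoters, 16.4% of 43402 peaks rose and 13.8% fell (7112 and 5982). Promoters therefore made up 8.96% of the peaks that rose, 26.1% of those that fell and 20.1% of all peaks. Peaks inside genes (4818 rose, 3809 fell) and within 5 kb of a gene (694 and 530) leaned to rises, and peaks with no gene within 5 kb were balanced (1600 and 1643).

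The split went with H3K4me3 at promoters, and with the level of the peak. Of 10251 promoter peaks that overlap an H3K4me3 peak, 5.4% rose and 19.7% fell. Of the 701 without one, 20.8% rose and 13% fell. These 2 classes also differed in median level (1.87 and 1.06), and the share of each was not separated. Away from promoters 15.5% rose and 16.1% fell with an H3K4me3 peak, and 16.7% and 13% without one. In the lowest quartile of level 23.3% of peaks rose and 12.7% fell, and in the highest quartile 9.04% rose and 18.6% fell. Rises were also larger, with a median size of 0.903 against 0.74 for falls, and 3067 of them exceeded 2-fold against 1459 falls. With each library centred on its median in place of quantile normalization, 36.5% of promoter calls were rises (976 against 1700), compared with 24.9% here. With the values as deposited, falls also outnumbered rises away from promoters (7294 rose, 8893 fell), where the median change of all peaks was -0.14, compared with -0.06 after quantile normalization.

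**Figure D1:**
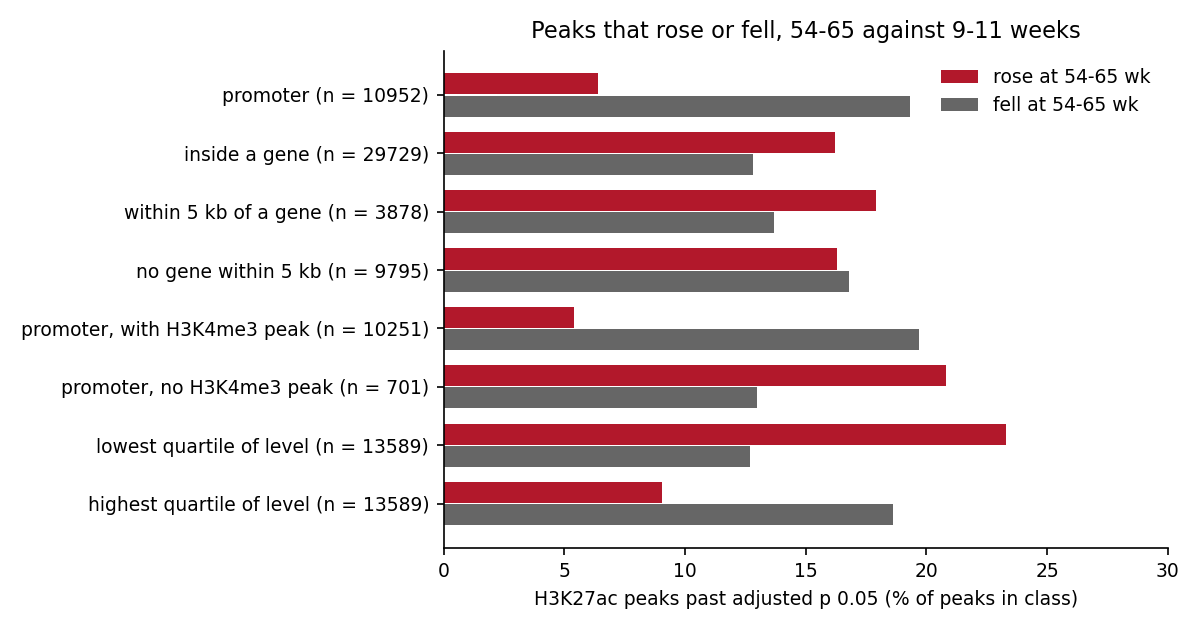
Percent of H3K27ac peaks that rose (red) or fell (grey) at 54-65 weeks against 9-11 weeks, by place, by overlap with an H3K4me3 peak and by level. Promoters with an H3K4me3 peak fell more often (19.7%) than they rose (5.4%), and the lowest quartile of level shows the reverse (12.7% and 23.3%).

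The windows of promoters that rose held fewer CpG than those that fell, given here as counts without a test. RefSeq windows lay in the peak for 7500 of the 10747 promoter genes. The 406 that rose had a median of 8 CpG and 56.4% GC, the 1496 that fell 15 CpG and 59.6% GC, and all 7500 had 16 CpG and 60% GC. AP-1 letters were in 9.85% of risen, 4.41% of fallen and 4.37% of all 7500 windows, and in 6.87% of the 27025 windows of the whole RefSeq table. AGGTCA was in 16.5% of risen, 8.02% of fallen and 10.4% of all windows, and a TATA box in 11.1%, 6.22% and 6.47% of them. The GC box (50.5%, 58.5% and 59.8%) and the ETS letters (5.67%, 10.4% and 13.9%) were rarer in risen windows. Forkhead letters were in 3.2% of risen, 2.94% of fallen and 2.25% of all windows. CpG-poor windows are also commoner in the whole table (median 5 CpG, with AGGTCA in 14% and a TATA box in 12.9%), and the shares were not adjusted for CpG content or level.

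The promoters with the smallest p among those that rose belong to a transcription factor, enzymes and membrane proteins. Foxc1 had levels of 1.57 to 2.83 (median 2.26) at 54-65 weeks, against -1.08 to 0.11 (median -0.28) at 9-11 weeks. The groups were separated by more than 1 log2 unit, and the change was 2.6 ± 0.25 (SE, adjusted p = 4.08e-07). Its H3K4me3 level averaged 3.91 at 54-65 weeks and 2.19 at 9-11 weeks. The difference between ages at Foxc1 was 2.93, 2.31, 2.3, 2.29 and 2.04 within the 5 shared library-name digits, the last of them with replicate 10 as its 54-65-wk library.

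Tmprss6, a membrane serine protease that restrains hepcidin in liver, had levels of 0.24 to 3.2 (median 2.17) at 54-65 weeks, against -1.57 to 0.13 (median -0.34) at 9-11 weeks, a change of 2.45 ± 0.41 (adjusted p = 0.000796). Mia2, of the sites where cargo leaves the endoplasmic reticulum, had 1.33 to 2.53 (median 1.93) at 54-65 weeks and -0.17 to 0.9 (median 0.62) at 9-11 weeks. Akr1c13, an aldo-keto reductase, had 0.93 to 2.35 (median 1.81) at 54-65 weeks and -0.05 to 0.7 (median 0.46) at 9-11 weeks. None of these 3 promoters had overlapping groups. Nt5e had 1.53 to 2.56 (median 1.9) at 54-65 weeks and 0.51 to 1.23 (median 0.98) at 9-11 weeks, again without overlap, a change of 1.04 ± 0.18 (adjusted p = 0.000988). Prom1 (CD133, of apical membrane protrusions), Acss1 (a mitochondrial acetyl-CoA synthetase) and Agmo (alkylglycerol monooxygenase) rose by 1.1 ± 0.19, 0.85 ± 0.14 and 0.84 ± 0.14, with groups that overlapped at their edges. Over all peaks, 190 had every 54-65-wk library above every 9-11-wk library (0.35%) and 114 had every one below (0.21%).

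Among promoters that fell, Bahcc1 (a chromatin protein with a BAH domain) had levels of 0.15 to 1.81 (median 0.8) at 54-65 weeks, against 1.78 to 2.38 (median 2.09) at 9-11 weeks. All but the highest 54-65-wk library lay below the 9-11-wk range, and the change was -1.27 ± 0.17 (adjusted p = 8.67e-05). Emp3 had 1.54 to 2.46 (median 1.9) at 54-65 weeks and 2.47 to 2.76 (median 2.63) at 9-11 weeks, which touch but do not overlap. Il16, a chemoattractant of lymphocytes, had 0.84 to 2.77 (median 1.54) at 54-65 weeks and 2.3 to 2.94 (median 2.74) at 9-11 weeks, and its change was -1.09 ± 0.2 (adjusted p = 0.00152). Foxn3, a forkhead repressor, fell by 1.07 ± 0.19 to a mean of 1.16 at 54-65 weeks, against 2.24 at 9-11 weeks. Obsl1 (a cytoskeletal adaptor, -1.12 ± 0.2), the zinc-finger genes Zfp334 (-0.96 ± 0.17) and Zfp382 (-0.87 ± 0.16), Zcchc3 (a zinc-knuckle protein, -0.86 ± 0.16) and Acyp2 (an acylphosphatase, -0.67 ± 0.12) also fell.

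Replicate 10 behaved differently at these promoters and at cell-type markers. At the 10 promoters named for rising, it lay above all 9-11-wk libraries at 7, and at the 10 named for falling it lay below all of them at 9. At the 12 epithelial marker promoters that rose it lay above all 9-11-wk libraries at 0, and at the 16 stromal ones that fell it lay below all of them at 0. Replicate 4 lay beyond the 9-11-wk range at 10 of the 10 promoters named for rising and at 3 of the 10 named for falling. The named promoters were chosen by p with these libraries in the fit, so the counts describe and do not test.

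**Figure D2:**
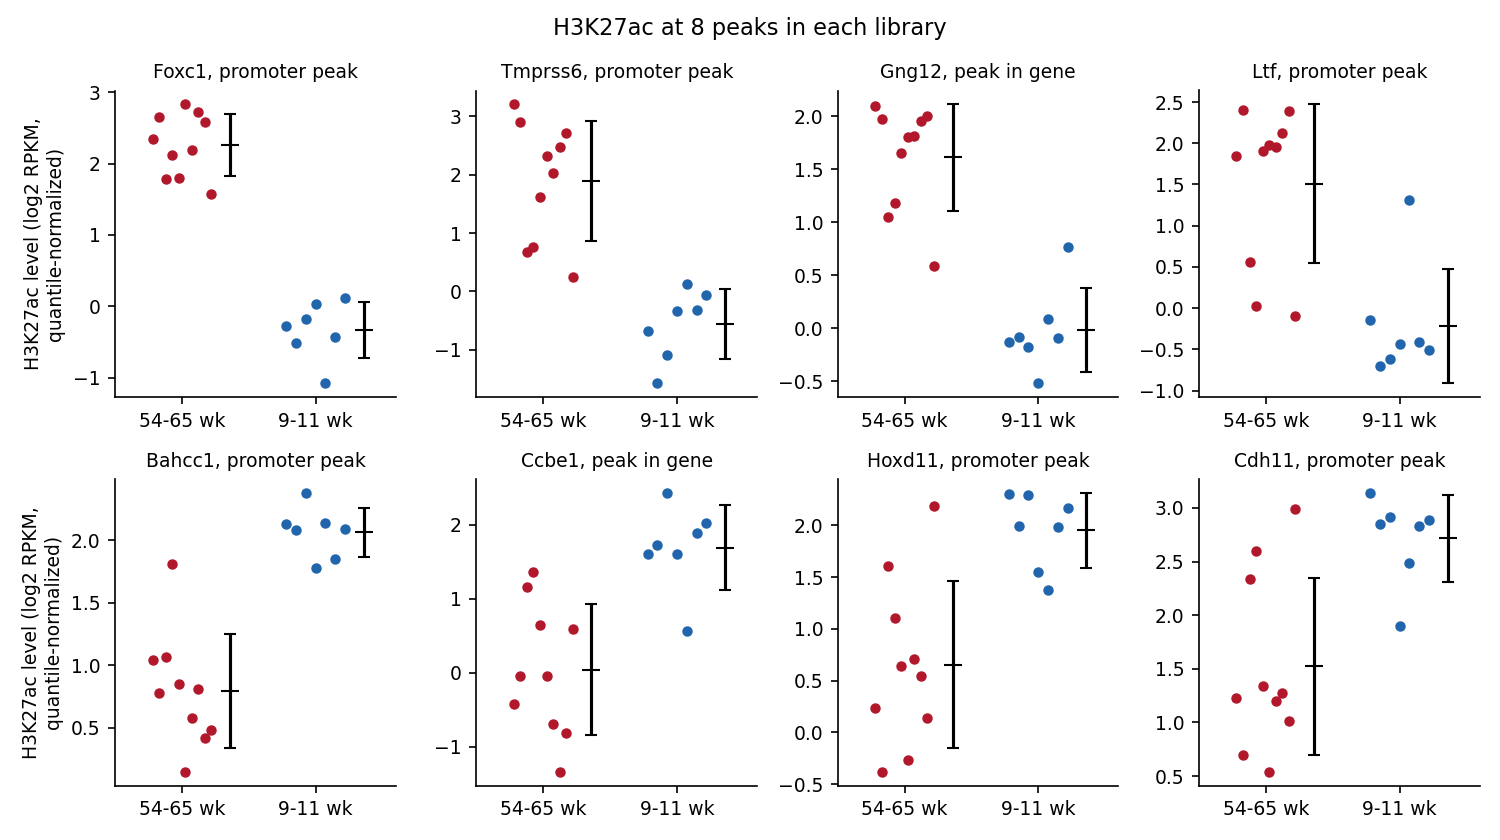
H3K27ac level (log2 RPKM, quantile-normalized) of each library at 8 peaks, with the 10 libraries of 54-65 weeks left of the 7 libraries of 9-11 weeks, and bars for the mean ± SD. At the Foxc1 promoter the 54-65-wk libraries sit between 1.57 and 2.83, all above the 9-11-wk libraries, while at the Ltf and Cdh11 promoters the groups overlap.

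Away from promoters, the peaks of Dst, Gpr137, Olfml3, Msra, Matn2, Dpys and Eml1 were among those picked for large changes without overlap between the ages, and that of Rad51b was picked for its small p. Dst, which encodes the cytoskeletal linker dystonin, had an intragenic peak with levels of 1.39 to 2.74 (median 2.2) at 54-65 weeks, against -1.55 to 0.82 (median 0.31) at 9-11 weeks, a change of 2.22 ± 0.34 (adjusted p = 0.000322). The H3K4me3 level there averaged 3.18 at 54-65 weeks and 0.37 at 9-11 weeks. A peak in Gpr137 rose by 2.14 ± 0.4 (adjusted p = 0.00173), with 9-11-wk levels that reached down to -4.21 in 1 library. A peak named for Olfml3, of a secreted olfactomedin-domain protein, had -0.57 to 1.27 (median 0.4) at 54-65 weeks and 1.46 to 2.18 (median 1.82) at 9-11 weeks. That peak lies outside the RefSeq extent of Olfml3. Peaks in Msra (methionine sulfoxide reductase A, -1.35 ± 0.26), Matn2 (the matrix protein matrilin-2, -1.32 ± 0.32), Dpys (dihydropyrimidinase, -1.29 ± 0.4) and Eml1 (a microtubule-binding protein, -1.25 ± 0.24) fell, and all 4 lacked overlap between the ages. A peak in Rad51b, a recombination-repair gene, fell by 0.8 ± 0.14 (adjusted p = 0.00118), with 0.45 to 1.21 (median 0.98) at 54-65 weeks and 1.46 to 2.09 (median 1.69) at 9-11 weeks.

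Some genes held many called peaks in 1 direction, and those with the most are given here. Over all peaks 14.4% rose. Kctd1 rose at 18 of 24 peaks, Glis3 (a zinc-finger factor) at 16 of 27, Gng12 (a G-protein gamma subunit) at 15 of 16, Nedd9 (a focal-adhesion scaffold) at 13 of 21, and Ptprj (a receptor tyrosine phosphatase) and Cmip (an adaptor protein) at 12 of 21 each. None of the 6 had a peak that fell. Their median changes over all peaks ran from 0.59 in Ptprj to 0.84 in Nedd9. The Glis3 peak of smallest p had levels of 0.17 to 1.99 (median 1.38) at 54-65 weeks and -0.42 to 0.27 (median -0.13) at 9-11 weeks.

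In the other direction 14.9% of all peaks fell. Tgfbr3 (betaglycan, a TGF-β co-receptor) fell at 22 of 28 peaks and Ccbe1 (a secreted protein of lymphatic growth) at 13 of 13. Tcf4 (an E-protein factor) fell at 13 of 36 peaks, Zbtb20 (a zinc-finger repressor) at 13 of 34, Adam12 (a metalloprotease) at 12 of 24 and Celf2 (an RNA-binding protein) at 11 of 33, and none of the 6 genes had a peak that rose. The Ccbe1 peak of smallest p had -1.34 to 1.36 (median -0.04) at 54-65 weeks and 0.56 to 2.43 (median 1.72) at 9-11 weeks, so the ages overlapped although the change was -1.65 ± 0.34 (adjusted p = 0.00273). Of 12447 genes with a peak, predicted, clone and Riken names left out, 2097 had rises only, 2769 falls only, 609 both and 6972 no called peak.

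Some genes held peaks called in both directions, and those with the most are given here. Picking by count favours genes with many peaks. Over all peaks 14.4% rose and 14.9% fell. Foxp1, a forkhead factor, had 12 peaks that rose and 7 that fell of 42. Its rising peak of smallest p had 1.89 to 3.12 (median 2.8) at 54-65 weeks and 1.25 to 2.23 (median 1.72) at 9-11 weeks. A falling peak of the same gene had 0.29 to 1.63 (median 1.0) at 54-65 weeks and 1.51 to 2.39 (median 1.8) at 9-11 weeks. Frmd4b, a FERM-domain scaffold, had 5 rising and 10 falling peaks of 36. The table also gives 252 peaks to Galnt2l (23 rose, 26 fell) and 134 to Fgfr2 (13 rose, 19 fell). These peaks span megabases, and those of smallest p lie over other RefSeq genes (Rab4a, Crispld2, 1500002F19Rik and Pstk). The name is therefore the table's and not the place. The shares of Foxp1 lay above those of all peaks in both directions, and the shares of Galnt2l and Fgfr2 lay below. Frmd4b lay above for falls and below for rises. These shares were not tested.

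Some neighbouring peaks moved together over long stretches. Counting single peaks as runs, there were 5159 runs of adjacent rising peaks and 5479 of adjacent falling peaks, and 135 and 132 of them held 5 or more peaks. The longest rising run held 18 peaks over 81.2 kb at chrX:139515454-139596693, beside Radx (a protein of stalled replication forks) and Rnf128 (a ubiquitin ligase). Its mean level per library ran from 0.37 to 2.21 at 54-65 weeks and from -0.62 to 0.68 at 9-11 weeks, and replicates 3, 4 and 10 (0.5, 0.54 and 0.37) lay within the 9-11-wk range. Rising runs of 14 peaks around Tspan14, Prxl2a and Sftpd (surfactant protein D, with a promoter change of 1.84), 13 at Gng12, 12 at Tshr (the thyrotropin receptor) and Gtf2a1, and 11 at Alcam (an adhesion molecule) had mean changes of 1.25, 1.2, 1.14 and 1.17. They spanned 2850, 114, 183 and 330 kb, so neighbouring peaks of the first need not lie close together.

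The longest falling run held 16 peaks over 202 kb at chr10:97467707-97669206, across Dcn, Lum and Epyc, which encode small leucine-rich proteoglycans of the matrix. Its library means ran from -0.2 to 1.89 at 54-65 weeks and from 1.2 to 1.83 at 9-11 weeks. Replicate 10 (1.89) was above all 9-11-wk libraries and replicate 4 (1.39) within their range, while the other 8 (-0.2 to 0.92) lay below. A further 12 falling peaks at chr10:97345589-97423505, next to this run, ended inside the Mir3966 hairpin, whose mature sequence is printed above. Falling runs of 15 peaks at Ccbe1 and 12 at Osr1 (an odd-skipped factor of mesenchyme) had mean changes of -1.15 and -1.05, over 293 and 1010 kb. The run of 11 falling peaks at chr11:120186786-120317831, over Bahcc1, had library means of 0.36 to 1.29 at 54-65 weeks and 1.41 to 1.92 at 9-11 weeks. There the groups did not overlap, and replicates 3, 4 and 10 (1.25, 1.29 and 0.69) were below all 9-11-wk libraries. Runs were found from the calls themselves, so their means are a description.

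**Figure D3:**
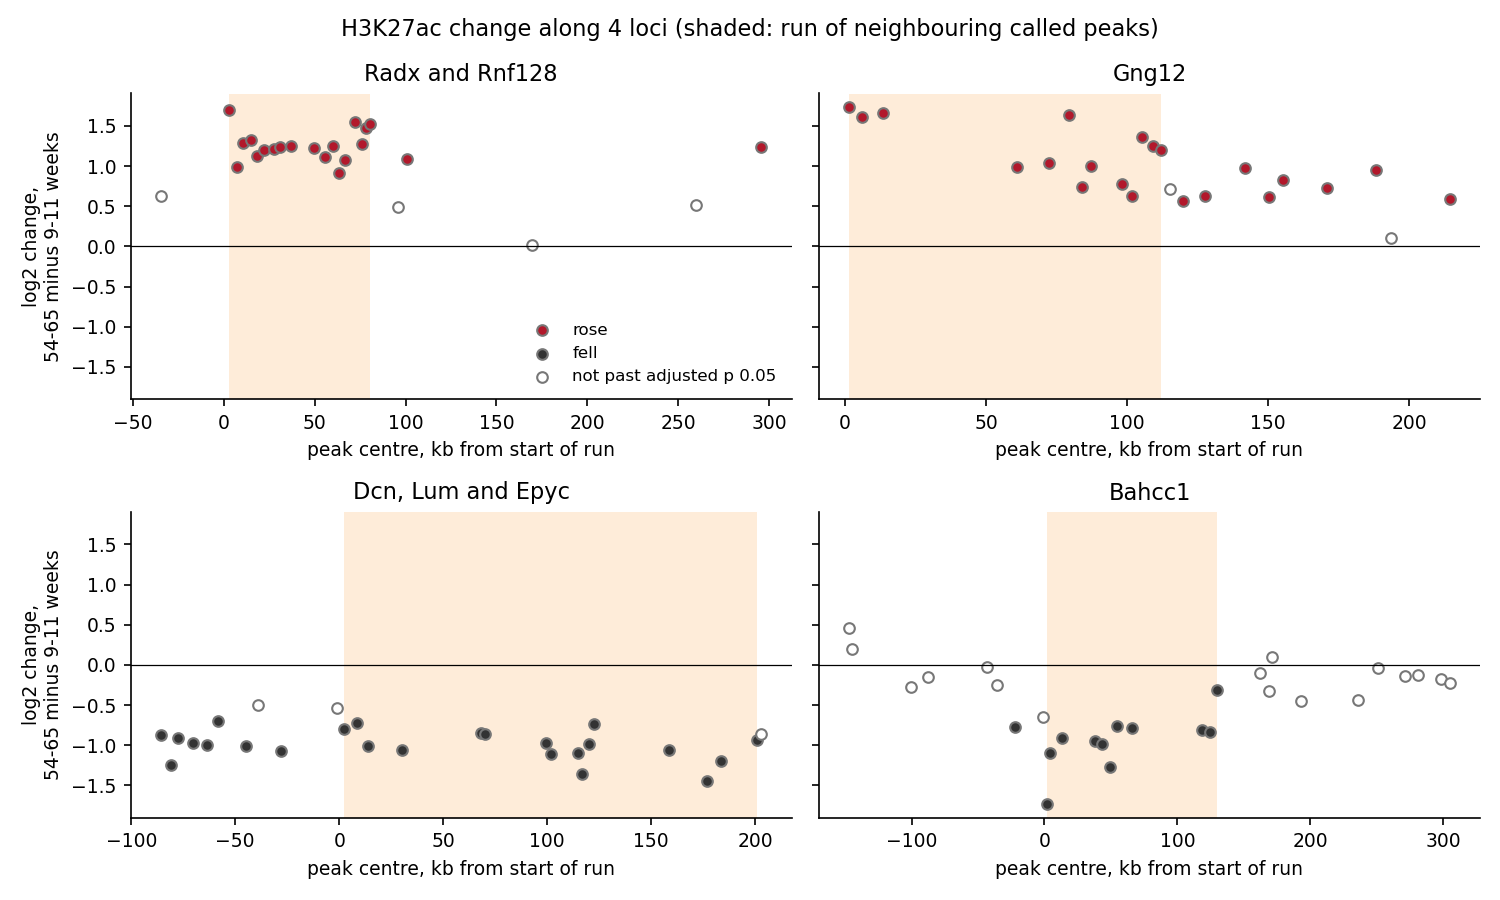
Change in H3K27ac (log2, 54-65 minus 9-11 weeks) of each peak against its distance in kb from the start of a run of neighbouring called peaks, at 4 loci. Shading marks the run. The peaks of the Radx and Rnf128 run rise by a mean of 1.26 and those of the Dcn, Lum and Epyc run fall by a mean of 1.01, whereas beyond the Bahcc1 run most peaks are not called.

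Cell-type markers moved in H3K27ac. Of 22 promoters of luminal and glandular epithelium, 12 rose and 0 fell (median 0.41), where 6.34% of all promoters rose and their median was -0.14. Ltf had -0.1 to 2.4 (median 1.93) at 54-65 weeks and -0.7 to 1.31 (median -0.43) at 9-11 weeks, a change of 1.72 ± 0.39 (adjusted p = 0.00434), with overlap. Cldn4 had 1.92 to 2.48 (median 2.42) at 54-65 weeks and 1.41 to 2.18 (median 1.77) at 9-11 weeks. Pax8, a factor of Müllerian epithelium, rose by 0.53 ± 0.11 to a mean of 2.91 at 54-65 weeks, against 2.38 at 9-11 weeks. General epithelial genes were divided by the test. Cdh1 (E-cadherin, 0.34 ± 0.12), Krt18 (0.36 ± 0.13), Cldn3 (0.32 ± 0.11) and Cldn7 (0.51 ± 0.14) rose, and Epcam (0.44 ± 0.2), Krt8 (0.28 ± 0.14) and Krt19 (0.36 ± 0.18) did not pass. The 12 calls became 7 without replicate 2 or 7 of the 54-65-wk group, or without replicate 1 or 2 of the 9-11-wk group, and Cdh1, Krt18 and Cldn3 were among those lost. The summary level of the list ran from 1.06 to 2.33 (median 2.19) at 54-65 weeks and from 1.21 to 1.93 (median 1.42) at 9-11 weeks, and 5 markers, Elf3, Foxa2, Muc1 and Prss8 among them, have no peak under their name in the table.

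Of 17 stromal promoters, 16 fell and 0 rose (median -0.93), where 19.4% of all promoters fell. Hoxd11 had -0.38 to 2.19 (median 0.59) at 54-65 weeks and 1.37 to 2.3 (median 1.99) at 9-11 weeks, a change of -1.3 ± 0.26 (adjusted p = 0.00261). Cdh11, a cadherin of mesenchyme, had 0.54 to 2.99 (median 1.25) at 54-65 weeks and 1.9 to 3.14 (median 2.85) at 9-11 weeks, so at both genes the ages overlapped. Col3a1 (-1.2 ± 0.29) and the general fibroblast genes Vim (-0.94 ± 0.21) and Pdgfra (-0.85 ± 0.27) fell, and Meis1 (-0.17 ± 0.1) did not pass the test. The summary level ran from 0.52 to 2.26 (median 1.09) at 54-65 weeks and from 1.64 to 2.31 (median 2.26) at 9-11 weeks. Hand2, Hoxa10, Hoxa11, Hoxd10 and Tcf21 have no peak under their name. Smooth muscle promoters fell at 5 of 11, among them Cald1 (-0.86 ± 0.19) and Des (-0.94 ± 0.24), while Acta2 (-0.04 ± 0.18) did not pass. These 5 falls became 3 without replicate 2 or 6 of the 54-65-wk group, or without replicate 1 or 2 of the 9-11-wk group. Their summary level was 0.75 to 1.59 (median 1.06) at 54-65 weeks and 1.45 to 1.95 (median 1.7) at 9-11 weeks.

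Leukocyte promoters rose at 4 of 15 and fell at 0, where 6.34% of all promoters rose and 19.4% fell. These shares also stand beside the counts of the other cell types in this paragraph. Laptm5, a lysosomal membrane protein of blood cells, had 1.18 to 1.86 (median 1.58) at 54-65 weeks and 0.16 to 0.84 (median 0.51) at 9-11 weeks, without overlap, a change of 1.1 ± 0.2 (adjusted p = 0.00132). Cytip (1.0 ± 0.28), Lcp1 (0.68 ± 0.2) and Inpp5d (0.67 ± 0.22) also rose, and Ptprc, which encodes CD45, had a change of 0.3 ± 0.33 that did not pass. The list's level was 0.57 to 1.57 (median 1.12) at 54-65 weeks and 0.43 to 1.1 (median 0.78) at 9-11 weeks. Of 8 blood endothelium promoters, Flt1 (1.06 ± 0.29) and Sox7 (0.77 ± 0.21) rose and Esam (-0.6 ± 0.18) fell. Their median was -0.31, against -0.14 for all promoter genes. Of 2 adipocyte promoters, Pparg (0.66 ± 0.22) rose and Lpl fell. Lpl, lipoprotein lipase, had -0.11 to 1.05 (median 0.56) at 54-65 weeks and 1.22 to 1.67 (median 1.53) at 9-11 weeks, without overlap, and its change was -0.94 ± 0.18 (adjusted p = 0.0019). Promoters of macrophages (1 rose, 1 fell of 5), B and plasma cells (1 and 1 of 2), pericytes (0 and 1 of 3), T and NK cells (0 and 0 of 2), stratified epithelium (0 and 0 of 2) and lymphatic endothelium (0 and 0 of 1) gave few values, and granulocytes and mesothelium had no promoter peak. The part of these cell-type markers in the gene lists that follow was not tested list by list. The fit with the epithelial minus stromal score as a covariate called 48 peaks in all, 9 of them at promoters, and 36 of the 48 were also called, in the same direction, without the score. The score is itself made of H3K27ac at these markers, many of them called, so this fit cannot tell tissue make-up from the mark.

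**Figure D4:**
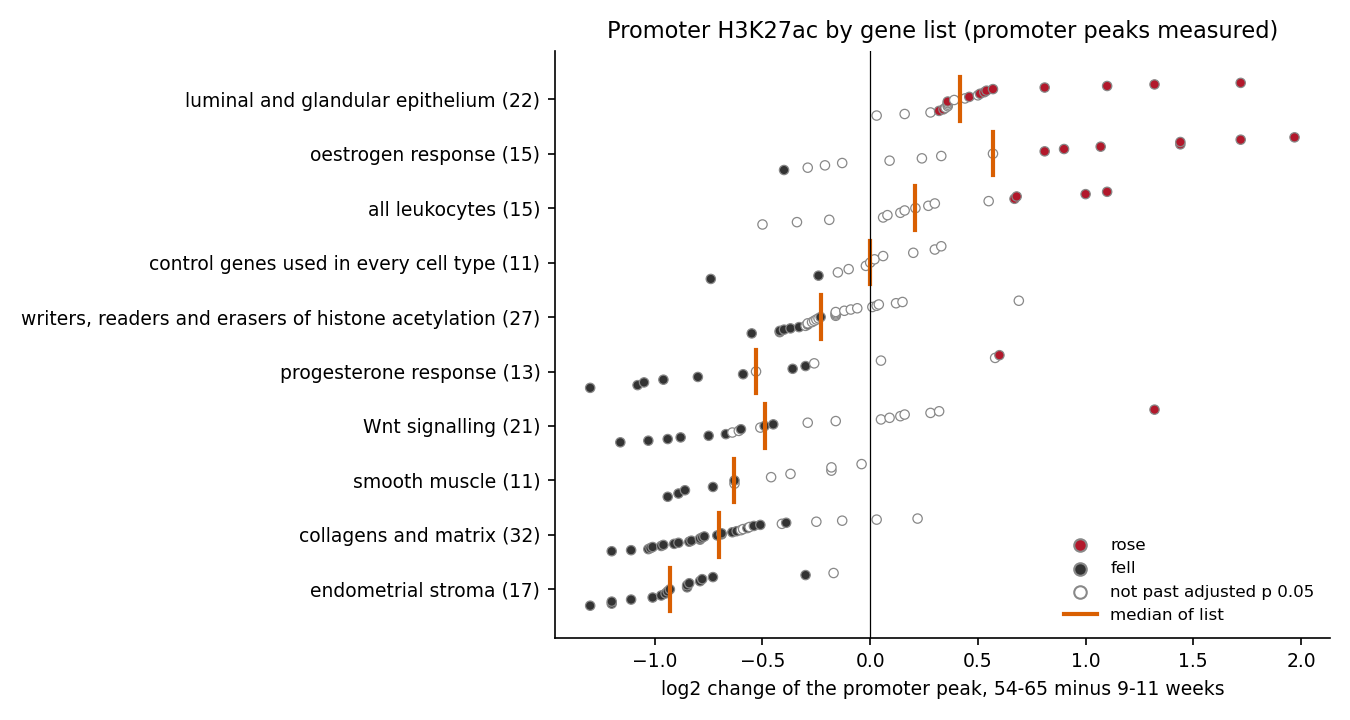
Change in promoter H3K27ac (log2, 54-65 minus 9-11 weeks) of each gene in 10 lists, 1 point a gene. Epithelial and oestrogen-response genes lie mostly above 0, and stromal, collagen and progesterone-response genes mostly below.

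The oestrogen and progesterone lists moved in opposite directions. Of 15 oestrogen-response promoters, 7 rose and 1 fell (median 0.57), where 6.34% of all promoters rose and 19.4% fell. Aqp5, a water channel, had -1.15 to 2.33 (median 1.81) at 54-65 weeks and -1.34 to 0.67 (median -0.95) at 9-11 weeks, a change of 1.97 ± 0.49 (adjusted p = 0.00658) with overlap. Padi1 (a peptidyl-arginine deiminase, 1.44 ± 0.3), Greb1 (a cofactor of the oestrogen receptor, 1.07 ± 0.28), Sprr2f (1.44 ± 0.41) and Padi2 (0.9 ± 0.25) rose, Vegfa (-0.4 ± 0.13) fell, and Fos (-0.13 ± 0.11) did not pass. Ltf and Lcn2 are members of both this list and the epithelial one. The list's level was 0.56 to 2.01 (median 1.75) at 54-65 weeks and 0.73 to 1.33 (median 0.89) at 9-11 weeks.

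Of 13 progesterone-response promoters, 8 fell and 1 rose (median -0.53), where 19.4% of all promoters fell and 6.34% rose. The 8 falls became 4 without replicate 1 or 3 of the 9-11-wk group. A fallen member of this list is also a stromal marker. Gli1, a hedgehog effector in stroma, had 0.12 to 1.73 (median 0.6) at 54-65 weeks and 1.3 to 2.43 (median 2.03) at 9-11 weeks, a change of -1.08 ± 0.22 (adjusted p = 0.00273). The hedgehog receptor Ptch1 (-1.3 ± 0.42), Fst (follistatin, -1.05 ± 0.29), Zbtb16 (-0.96 ± 0.33), Klf15 (-0.8 ± 0.27), Klf9 (-0.59 ± 0.16) and Foxo1 (-0.36 ± 0.099) fell. The gene that rose was Sox17, a factor of uterine epithelium and endothelium (0.6 ± 0.13), and Ihh, the epithelial hedgehog ligand, had a change of -0.53 ± 0.33 that did not pass. The level was 0.95 to 1.99 (median 1.28) at 54-65 weeks and 1.64 to 2.06 (median 1.89) at 9-11 weeks. Of 13 hormone receptor promoters, 4 fell and 1 rose, against the same 19.4% and 6.34% of all promoters. Those that fell included Esr1 (-0.29 ± 0.09), Igf1r (-0.54 ± 0.14) and Prlr (-1.23 ± 0.34), Esr2 rose (0.74 ± 0.2), and Pgr (-0.18 ± 0.13) did not pass.

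Matrix genes fell widely. Of 32 collagen and matrix promoters, 24 fell and 0 rose (median -0.7), where 19.4% of all promoters fell, and 48 of their 149 peaks away from promoters fell against 8 that rose (13.8% and 16.4% of all such peaks). Col6a2 had 0.36 to 2.24 (median 1.0) at 54-65 weeks and 1.69 to 2.57 (median 2.31) at 9-11 weeks. Fbn1, fibrillin-1, had -0.01 to 1.87 (median 0.92) at 54-65 weeks and 1.49 to 2.38 (median 2.24) at 9-11 weeks, a change of -1.11 ± 0.23 (adjusted p = 0.0029), and at both genes the ages overlapped. Sparc (-0.91 ± 0.21), Col14a1 (-1.03 ± 0.22) and Col1a1 (-0.79 ± 0.19) fell, and Fbln1 (0.03 ± 0.12) and Tnc (-0.13 ± 0.28) did not pass. Dcn, Lum, Col1a1, Col1a2, Col3a1 and Fbn1 are also stromal markers. The level was 0.38 to 1.72 (median 0.86) at 54-65 weeks and 1.29 to 1.82 (median 1.75) at 9-11 weeks. Matrix-degrading genes fell at 6 of 14 promoters and rose at 0. These were the cathepsins Ctsk (-1.02 ± 0.23) and Ctsl (-0.43 ± 0.095), the proteases Adamts1 (-0.65 ± 0.15), Adamts5 (-1.05 ± 0.26) and Mmp2 (-0.84 ± 0.25), and the inhibitor Timp2 (-0.63 ± 0.17).

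In TGF-β and BMP signalling, 5 of 17 promoters fell and 1 rose, where 19.4% of all promoters fell and 6.34% rose. The ligands Tgfb3 (-0.5 ± 0.15) and Bmp7 (-1.11 ± 0.29) and the receptors Tgfbr2 (-0.42 ± 0.097), Tgfbr3 (-0.75 ± 0.2) and Bmpr2 (-0.26 ± 0.09) fell, and Skil, a repressor of SMADs, rose (0.39 ± 0.14). Away from promoters 35 of 125 peaks fell and 19 rose, against 13.8% and 16.4% of all such peaks, with 21 of the falls in Tgfbr3, and Smad3 had 6 rising peaks of 17. In Wnt signalling, 9 of 21 promoters fell and 1 rose, against the same 19.4% and 6.34%. Fzd2, a receptor, had 1.04 to 1.87 (median 1.69) at 54-65 weeks and 2.01 to 2.38 (median 2.16) at 9-11 weeks, without overlap, a change of -0.6 ± 0.13 (adjusted p = 0.00291). The ligands Wnt11 (-1.16 ± 0.35), Wnt16 (-1.03 ± 0.32), Wnt9a (-0.75 ± 0.19) and Wnt5a (-0.49 ± 0.14), the agonist Rspo3 (-0.88 ± 0.18) and the target Axin2 (-0.67 ± 0.19) fell. The epithelial ligand Wnt7b had -0.37 to 1.96 (median 1.58) at 54-65 weeks and -0.74 to 1.16 (median -0.4) at 9-11 weeks, and rose by 1.32 ± 0.33. All 7 of the 7 Nkd1 peaks away from the promoter fell.

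Genes that write, read or erase histone acetylation had 8 falls and 0 rises at 27 promoters (median -0.23, with all promoter genes at -0.14 and 19.4% of them fallen). The falls became 5 without replicate 3 of the 9-11-wk group. Ep300 itself, the p300 acetyltransferase, had 2.05 to 2.82 (median 2.52) at 54-65 weeks and 2.7 to 2.89 (median 2.85) at 9-11 weeks, a change of -0.29 ± 0.088 (adjusted p = 0.0184). The others that fell included the acetyltransferase Kat2b (-0.42 ± 0.14), the coactivators Ncoa1 (-0.42 ± 0.13) and Ncoa2 (-0.33 ± 0.1), the reader Brd2 (-0.23 ± 0.07) and the deacetylases Hdac5 (-0.4 ± 0.14) and Hdac10 (-0.37 ± 0.13). Crebbp (0.04 ± 0.16) and Hdac1 (-0.25 ± 0.15) did not pass. HOX and Müllerian duct factors were split, with Hoxd11, Hoxc10 (-1.21 ± 0.28) and Hoxa7 (-0.87 ± 0.24) down and Pax8 and Dlx5 (0.74 ± 0.21) up among 7 promoters. Forkhead factors had 1 rise (Foxc1) and 2 falls (Foxn3 and Foxo1) of 9. Both counts stand beside 6.34% risen and 19.4% fallen of all promoters.

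Lists that are often read in ageing had few calls or calls in both directions, and their counts stand beside 6.34% risen and 19.4% fallen of all promoters. The shares of the senescence and interferon lists were near these. Of 12 promoters of senescence and cell-cycle arrest genes, Cdkn2b (p15, 0.9 ± 0.2) rose and Cdkn1b (p27, -0.39 ± 0.097) and Glb1 (-0.27 ± 0.088) fell. Of 23 proliferation promoters, 1 fell (Aurka, -0.44 ± 0.092) and 0 rose. Among 20 promoters of inflammatory and senescence-associated secretion, Nfkb1 (0.32 ± 0.073) rose and 8 fell, 4 of them IGF-binding proteins with changes from -0.92 ± 0.21 in Igfbp6 to -0.64 ± 0.18 in Igfbp7. Away from promoters the same list leaned the other way, with 9 of 32 peaks risen and 2 fallen, against 16.4% and 13.8% of all such peaks. Interferon response genes rose at 2 (Zbp1, 0.64 ± 0.19, and Oas1a, 0.44 ± 0.17) and fell at 6 of 25, including Ddx58 (-0.53 ± 0.16) and Gbp3 (-0.4 ± 0.11). Complement genes rose at 2 (Cfb, 0.93 ± 0.25, and Cfi, 0.8 ± 0.26) and fell at 3 of 12, including C1s1 (-1.0 ± 0.21) and Serping1 (-1.05 ± 0.23).

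The shares of all promoters, 6.34% risen and 19.4% fallen, also stand beside the counts of the following short lists. Decidualisation genes had 1 rise (Hbegf, 0.87 ± 0.21) and 4 falls, including Snai2 (-0.94 ± 0.24) and Il11ra1 (-0.59 ± 0.15), of 13. AP-1 and immediate early genes had 2 rises (Maff and Klf4) and 5 falls of 14, and Fos, Jund and Egr1 were not called. Clock genes had 1 rise (Per2, 0.47 ± 0.11) and 2 falls (Clock, -0.48 ± 0.16, and Rora, -0.49 ± 0.18) of 8. Away from promoters, 11 of 55 clock peaks rose, 6 of them among the 8 of Arntl, and 8 fell. Of all such peaks 16.4% rose and 13.8% fell. At promoters, heat-shock genes fell at 3 of 14, oxidative stress genes rose at 1 and fell at 2 of 18, and antigen presentation genes rose at 1 of 5. Of 11 control promoters used in every cell type, 2 fell, Eef1a1 (-0.24 ± 0.08) among them, and Actb (-0.02 ± 0.08) and Gapdh (0.06 ± 0.11) did not pass. Over all lists 167 promoter peaks were called, and 53 of these calls (15 that rose, 38 that fell) were lost when 1 library or another was left out, with adjusted p of up to 0.117 and no change of direction. Among genes named above these were Bmpr2, Brd2, Cdh1, Cfi, Cldn3, Clock, Eef1a1, Esr1, Glb1, Hdac5, Hdac10, Klf4, Klf15, Krt18, Lcn2, Maff, Oas1a, Pdgfra, Pparg, Ptch1, Rora, Skil, Wnt16 and Zbtb16. All 7 calls of the AP-1 list were among the 53. Leaving out replicate 1, 2 or 3 of the 9-11-wk group lost 36, 37 and 38 calls, and leaving out replicate 3 or 4 of the 54-65-wk group lost 0.

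The intermediate ages, which were tested against the same 9-11-wk libraries, gave few calls. At 28-36 weeks 0 peaks were called (0%), with 2134 (3.93%) at an unadjusted p below 0.05. At 42-48 weeks 6 were called (0.011%), with 4849 (8.92%) at an unadjusted p below 0.05, and at 54-65 weeks 43.3% of peaks had such a p. The groups hold 4, 6 and 10 libraries, so the counts are not comparable as sizes of effect. The 6 peaks of 42-48 weeks all rose: the promoters of Foxc1 and Gm2619, and peaks at Sult1e1, Ceacam12, Gm5155 and 9530026P05Rik. The Foxc1 promoter changed by 1.51 at 28-36 weeks, 1.82 at 42-48 weeks and 2.6 at 54-65 weeks, and Gm2619 by 2.61 at 42-48 weeks and 3.78 at 54-65 weeks. Laptm5 changed by 0.99, 0.93 and 1.1 at the 3 ages, and Per2 by 0.37, 0.54 and 0.47. Emp3 (0.02, -0.21 and -0.65), Cald1 (-0.12, -0.11 and -0.86) and Pax8 (0.06, 0.22 and 0.53) had their largest change at 54-65 weeks. Of the genes in this paragraph whose 3 changes are given, Foxc1 passed the test before 54 weeks, at 42-48 weeks.

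Libraries of 1 age were spread, and the ages overlapped. The median level of the peaks that rose was 0.46 to 0.94 at 9-11 weeks, 0.69 to 1.0 at 28-36 weeks, 0.68 to 1.7 at 42-48 weeks and 0.81 to 2.01 at 54-65 weeks. For the peaks that fell it was 1.49 to 1.91, 1.36 to 1.65, 0.83 to 1.76 and 0.64 to 1.74 at the same ages. Replicate 5 of 42-48 weeks (1.7 and 0.83, with an epithelial minus stromal score of 1.08) lay beside the majority of 54-65-wk libraries, and replicates 3, 4 and 10 of 54-65 weeks (0.92, 0.98 and 0.81 for risen peaks) lay near the 9-11-wk range.

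**Figure D5:**
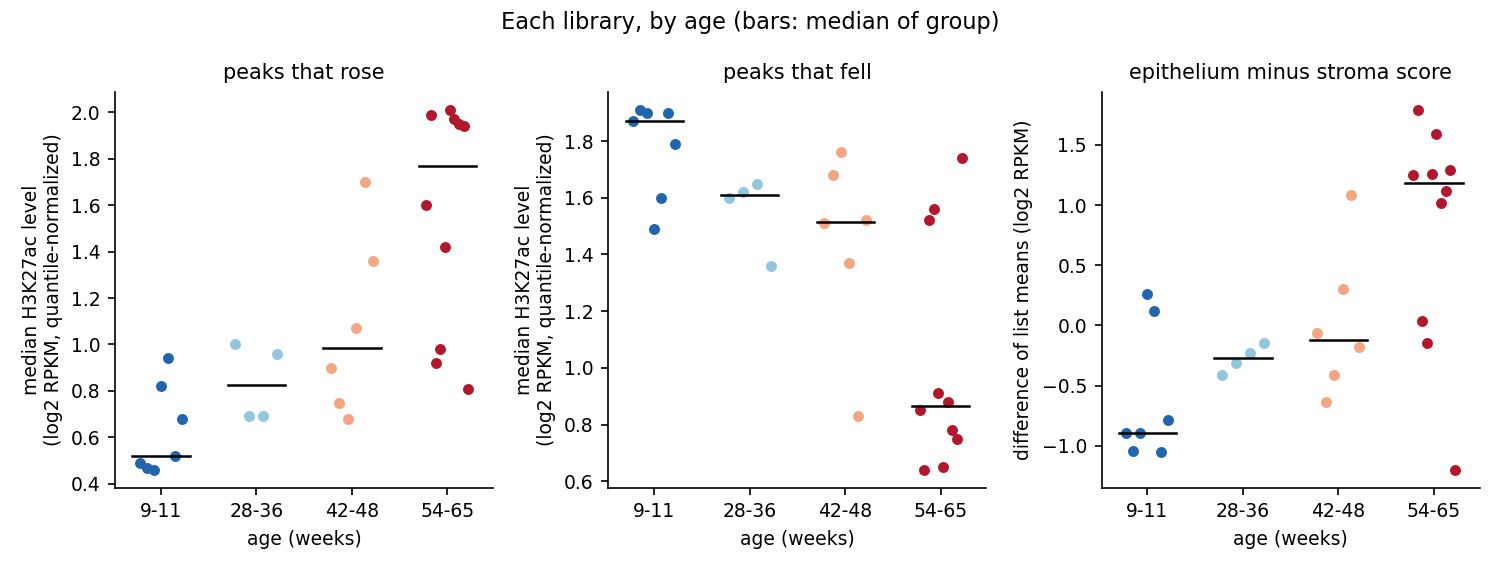
Per-library median level (log2 RPKM, quantile-normalized) of the peaks that rose and of those that fell, and epithelial minus stromal marker score (log2), for 9-11, 28-36, 42-48 and 54-65 weeks. At 54-65 weeks 3 of the 10 libraries lie apart from the rest, near the 9-11-wk libraries, on all 3 measures.

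Within the 5 library-name digits that hold both ages, the median difference over the peaks that rose was 1.47, 0.42, 0.44, 0.86 and 0.08, and over those that fell -1.12, -0.35, -0.31, -0.69 and -0.06. The differences in the epithelial minus stromal score within the same digits were 2.68, 1.08, 0.74, 1.17 and -0.63. In the last digit, where replicate 10 stands against 3 of the 9-11-wk libraries, 56.5% of risen peaks were higher and 54.7% of fallen peaks lower. With the digit as a factor 1365 peaks were called (761 rose, 604 fell), and with the digit as a factor and the 13 libraries of these digits alone 4, namely the Foxc1 promoter, Sult1e1, Gm5155 and 2810410L24Rik. With the score as a covariate the 48 calls (37 rose, 11 fell) included the Foxc1, Lpl, Bahcc1, Snord104 and Agmo promoters, 2 peaks of Cdkn2c (p18), Hecw2, Zfp462 and Erc2. Leaving out replicate 2 or 3 of the 9-11-wk group cut the falls to 5286 and 5308, below the 8092 of all libraries by over 1.5 times.

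H3K4me3 libraries of the same animals gave calls at 30.7% of their 25827 peaks. Of the 10 promoters named for rising, 9 overlap an H3K4me3 peak and it rose at 9, by 0.77 to 2.64. Of the 10 named for falling, it fell at 9 of 10, and Acyp2 (-0.23, adjusted p = 0.055) did not pass. Away from promoters, 5 of 10 rising and 5 of 10 falling named peaks overlap one, and each was called in the same direction. The named peaks were picked by p in H3K27ac and both marks come from the same animals. These counts therefore describe the named peaks and do not test whether the marks move together. At several list genes the change in H3K4me3 between the ages was near 0 while H3K27ac was called. H3K4me3 at Per2 averaged 2.92 at both ages, at Esr2 3.24 at 54-65 weeks and 3.14 at 9-11 weeks (adjusted p = 0.448), at Maff 3.25 at 54-65 weeks and 3.29 at 9-11 weeks (adjusted p = 0.772), and at Gbp3 3.67 at 54-65 weeks and 3.62 at 9-11 weeks (adjusted p = 0.758). Ep300 (-0.03), Glb1 (0.02) and Aurka (0.15) likewise did not pass in H3K4me3. The difference between the marks was not tested.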

How the data were processed

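H3K27ac was measured by ultra-low-input native ChIP-seq in 27 libraries of mouse uterus. The authors deposited log2 RPKM values per peak and library. The submitters' processing notes name build GRCm38 and, without roles, deepTools 3.5.1, ChIPseeker 1.34.1, DiffBind 3.8.0, MACS2 2.2.9.1, Bowtie2 and DESeq2. The steps behind the peak set are not given in the sources used here. Values were whole reads for 100.0% of entries within a tolerance of 0.05 reads, and a peak without reads stood at the value of 0.9 reads.

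Values were quantile-normalized and fitted with limma 3.58.1 in R 4.3.3 (4 age means, mean-variance trend, two-sided, Benjamini-Hochberg over 54354 peaks, threshold 0.05). The 8 peaks on Y were left out. H3K4me3 (25827 peaks) was fitted alike. The fit was tested on simulated data. Promoters are peaks within 1 kb of the RefSeq start of the gene that the table names. Of 16767 symbols, 14932 matched by symbol, 54 by synonym and 1781 not at all. An H3K4me3 peak counts as overlapping from 1 base. A list's level is the mean over its promoter peaks, 1 a gene.

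Named were the 10 called peaks of lowest p for each direction, at promoters and away from them, the 6 largest changes without overlap, the 6 genes with most calls one way, the 4 with most both ways, the 5 longest runs and up to 4 members of each list, with clone and predicted genes left out. A few list members count in their lists but are not reported here by name. List members beyond those, single replicates and runs' neighbours were picked after their values were seen. The comparison, members and lists were chosen with earlier results of these data known. Labels name separate mice, so p-values measure the spread between these animals and their tissue pieces. The number of reads per peak limits precision at weak peaks. Alternatives were other scalings, filters and covariates, a replicate block, and each library left out.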

Additional observations from a re-analysis of the deposited data

Results flagged for a closer look

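Single libraries stood far from the others of their age at 7 named peaks, out of 136 groups of values examined, and chance alone sets apart about 1 group in 20. Replicate 4 of the 54-65-wk group was the highest of its age at 3 peaks that fell. It had 1.88 at a peak named for Nfib but outside that RefSeq gene (the others 0.06 to 0.91). At Celf2 it had 1.9 (the others 0.43 to 1.21) and at Frmd4b 1.64 (the others 0.19 to 0.7). Its epithelial minus stromal score was -0.15. Of the 9-11-wk libraries, replicate 6 was lowest at Gpr137 with -4.21 (the others -1.1 to 0.13), replicate 5 lowest at the Il16 promoter with 2.3 (the others 2.68 to 2.94), and replicate 7 lowest at the Akr1c13 promoter with -0.05 (the others 0.4 to 0.7) and highest at Cmip with 1.25 (the others 0.15 to 0.56). Each of the 7 peaks kept its call with any single library left out.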

How the results depend on the processing

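The count of called peaks (15904 in all, 7812 risen, 8092 fallen, 2810 at promoters, 13094 away) depended most on how libraries and the epithelial minus stromal score were modelled. That score is made of H3K27ac at marker promoters in the same libraries. A drop in calls under it therefore cannot tell tissue make-up from a change in the mark. With the library-name digit as a factor the counts were 1365, 761, 604, 275 and 1090, with the mouse number series 7334, 3667, 3667, 1087 and 6247, and with the epithelial minus stromal score as a covariate 48, 37, 11, 9 and 39. Without the libraries of digit 6 they were 1891, 989, 902, 331 and 1560, with mouse numbers under 100 alone 9, 5, 4, 2 and 7, and with limma's array weights 34559, 15464, 19095, 6475 and 28084. An alternative chosen after seeing the data, the 13 libraries of digits with both ages with the digit as a factor, gave 4, 3, 1, 2 and 2. The meaning of the mouse number series in library names is not stated, and it went partly with age. At 54-65 weeks replicates 1, 2 and 4 alone had numbers under 100 (44, 34 and 51). At 9-11 weeks all but replicate 2 (270) did. The fit of numbers under 100 thus had fewer libraries. Its median SE at peaks called here was 0.33, against 0.24 with all libraries. The part of fewer libraries in its fewer calls was not tested. Without the lowest quartile of peak means 10547 were called, 4472 of them risen and 8169 away from promoters. Leaving out each library gave 10890 to 21274 in all, 5598 to 10215 risen, 5286 to 11059 fallen, 1915 to 3683 at promoters and 8973 to 17788 away. Peaks called here had a median size of 0.82, compared with 0.6 under the digit, 0.67 without digit 6, 0.78 in mouse numbers under 100 and 0.21 under the score, where 82.7% kept their sign.

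Replicate numbers are shared by the ages, but same-numbered libraries did not deviate together (correlations of -0.3 to 0.266), and with a replicate block 16064 peaks were called. Directions turned under the score at Perp (-0.19), Krt13 (-0.37), Synpo2 (0.01), Myl9 (0.09), Cd14 (-0.05), Prdm1 (0.04), Cfb (-0.04) and Cfi (-0.25), and at Pdpn (0.01) in mouse numbers under 100. Gzma (0.03) and Tcf7 (-0.03), neither called, turned with the values as deposited (Gzma, -0.06), array weights (Gzma -0.13, Tcf7 0.1), the replicate block (Tcf7, 0.05) and single libraries left out (Gzma -0.14 to 0.15, Tcf7 -0.14 to 0.1). The cause of these differences was not tested.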
